A study of Mus musculus with 16 samples.

Results

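The cell cycle and DNA replication genes described here are 39 genes taken by symbol from a mouse liver count table of 53465 genes. They comprise 24 genes of mitosis, 11 of DNA replication and 4 of G1 and the G1/S transition. All 39 were in the table and all 39 had enough counts to be among the 14998 genes tested. The list goes by function, and its rule names no level measured in these livers. Its members were chosen with earlier results of these data known, however, so the shares called below are not independent support.

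Livers of C57BL/6 mice were profiled by RNA sequencing, with 4 groups of 4 mice. HFD_PFOA mice ate a high-fat diet (HFD) and were given perfluorooctanoic acid (PFOA), a fluorinated surfactant that persists in the body, and HFD_vehicle mice ate the same diet and were given vehicle. CD_PFOA mice ate the control diet (CD) and were given PFOA, and CD_vehicle mice ate the control diet and were given vehicle. Dosing lasted 8 weeks, started after 16 weeks on the diet and went on with it, and the mice were 29 to 30 weeks old when livers were taken, so no group was sampled before the diet or before dosing. The groups ask how PFOA and the diet, alone and together, act on the liver. The labels give no sex and no dose, and no genotype other than the strain.

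Most hepatocytes of an adult liver rest outside the cell cycle and return to it after injury, loss of tissue or a mitogen. Entry is driven by D-type cyclins and E2F factors, which induce the enzymes that make nucleotides and the helicase that unwinds DNA. Genes of mitosis are switched on later, largely by the MuvB complex with FOXM1, through promoter elements called CHR and CCAAT boxes. Whole liver also holds macrophages, endothelial cells and other cells that can divide, and its hepatocytes are often polyploid, having replicated DNA without dividing.

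The libraries held 14456524 to 25778125 counts. A few libraries stood apart in these genes, and results are given with and without them where that matters. CD_vehicle 4 was above the other CD_vehicle livers for 25 of the 39 genes and for 17 of the 24 of mitosis. HFD_PFOA 3 was the highest of its group for 22 of the 24 genes of mitosis, and HFD_PFOA 1 was the lowest of its group for 22 of them. Such positions were not counted over all genes, so they are not shown to be particular to these genes. CD_vehicle 4 also held 649.5 CPM (the count scaled to a library of 1e+06) summed over 10 markers of B and plasma cells, against 19.0 to 33.0 CPM in the other CD_vehicle livers and 31.3 to 68.7 CPM in the other 3 groups. Its 11 markers of T and NK cells summed to 19.0 CPM, against 2.01 to 4.96 CPM in the other CD_vehicle livers. The part of these cells in the levels below was not tested. In whole liver, fewer cells of a type and less RNA per cell cannot be told apart.

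Transcripts of mitosis were most abundant in livers with both exposures, intermediate with either exposure alone and least abundant with neither. The 24 genes summed to 61.5, 118, 197 and 128 CPM in the 4 HFD_PFOA livers, and to 82.9, 70.6, 61.3 and 82.6 CPM in HFD_vehicle livers. They summed to 65.9, 66.4, 70.8 and 60.0 CPM in CD_PFOA livers, against 28.8, 20.4, 22.9 and 55.4 CPM in CD_vehicle livers. Every liver with either exposure was above every CD_vehicle liver in this sum, and HFD_PFOA 1 lay within the range of the groups with 1 exposure. Mean sums were 126 ± 55.7, 74.4 ± 10.4, 65.8 ± 4.43 and 31.9 ± 16.1 CPM in HFD_PFOA, HFD_vehicle, CD_PFOA and CD_vehicle livers (SD, n = 4 each). HFD_PFOA had the highest group mean for 23 of the 24 genes, and CD_vehicle the lowest for 23. The exceptions were the kinase Aurka, with its highest mean in HFD_vehicle livers, and the kinesin Kif23, with its lowest mean in CD_PFOA livers.

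Replication genes varied much less. The 11 genes summed to 73.8, 100.3, 106 and 82.4 CPM in HFD_PFOA livers, 87.1, 75.4, 80.9 and 81.8 CPM in HFD_vehicle livers, 80.1, 87.2, 75.4 and 76.5 CPM in CD_PFOA livers, and 59.5, 65.5, 71.4 and 74.1 CPM in CD_vehicle livers. All HFD_vehicle and CD_PFOA livers were above all CD_vehicle livers, and HFD_PFOA overlapped CD_vehicle only through HFD_PFOA 1 and CD_vehicle 4. The sum of the 4 genes of G1 and G1/S, in which Ccnd1 is the most abundant, overlapped in all 4 groups, at 35.2 to 106, 51.4 to 77.1, 49.3 to 85.7 and 27.2 to 82.3 CPM in HFD_PFOA, HFD_vehicle, CD_PFOA and CD_vehicle livers.

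**Figure D1:**
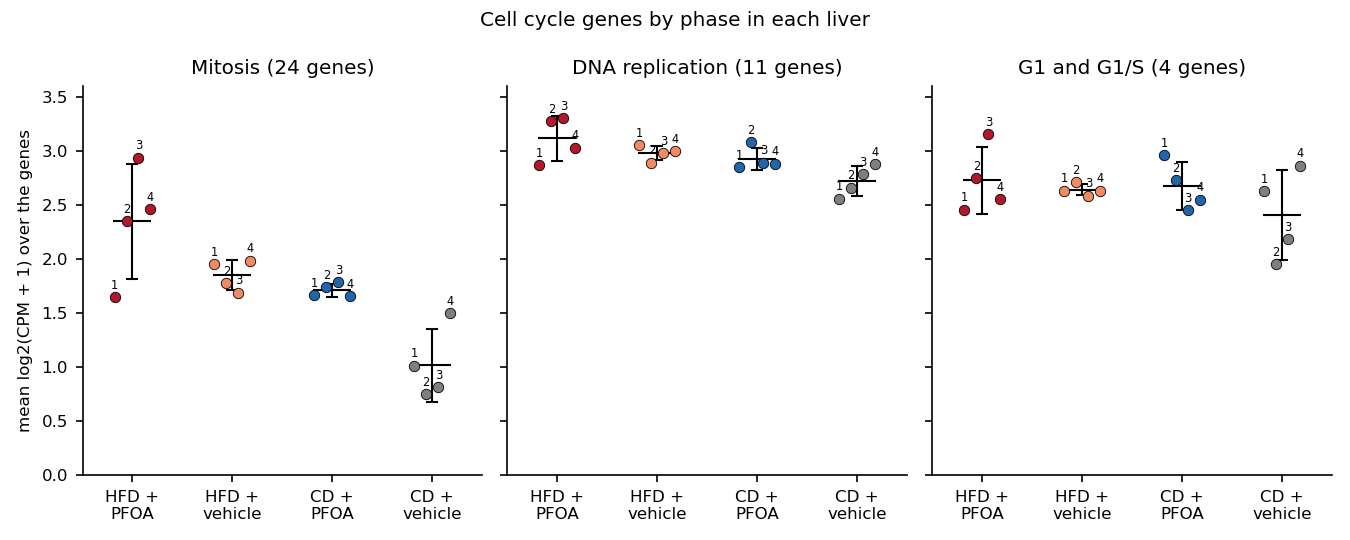
Mean log2(CPM + 1) over the genes of mitosis, DNA replication and G1 or G1/S in each liver (y axis), by group (x axis). Numbered points are mice, and bars are the mean ± SD of 4 mice. The mitosis means were 2.35, 1.85, 1.71 and 1.02 in HFD_PFOA, HFD_vehicle, CD_PFOA and CD_vehicle livers, and the replication means lay between 2.72 and 3.12.

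Mki67, the source of the Ki-67 proliferation antigen, lies at chr7:135689784-135716361 of GRCm38. It had 12.6, 23.5, 39.9 and 22.1 CPM in HFD_PFOA livers, 15.3, 11.2, 8.73 and 15.1 CPM in HFD_vehicle livers, 11.2, 12.1, 13.6 and 10.3 CPM in CD_PFOA livers, and 3.42, 3.66, 4.59 and 11.4 CPM in CD_vehicle livers. All 4 HFD_PFOA livers were above all 4 CD_vehicle livers, whereas CD_vehicle 4 reached into the ranges of the groups with 1 exposure. Top2a, the topoisomerase that untangles chromosomes before they separate, had 5.72, 12, 21.3 and 14.5 CPM in HFD_PFOA livers, 8.77, 7.35, 5.66 and 7.36 CPM in HFD_vehicle livers, 10.2, 6.83, 6.83 and 4.58 CPM in CD_PFOA livers, and 2.88, 2.47, 2.06 and 5.42 CPM in CD_vehicle livers. The HFD_PFOA and HFD_vehicle livers were all above the CD_vehicle livers, while CD_PFOA 4 was below CD_vehicle 4.

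Among cyclins and their kinase, the B-type cyclin Ccnb2 (chr9:70407692-70421547) set the CD_vehicle livers apart. It had 2.41, 4.63, 7.12 and 5.88 CPM in HFD_PFOA livers, 3.63, 4.18, 2.13 and 3.14 CPM in HFD_vehicle livers, 2.58, 2.24, 2.57 and 2.49 CPM in CD_PFOA livers, and 0.751, 0.321, 0.141 and 1.28 CPM in CD_vehicle livers. Each CD_vehicle liver was below every liver of the other groups. A processed copy, Ccnb2-ps, held 356 counts over all libraries against 1089 for Ccnb2, so reads shared between them make these levels uncertain. Cdk1, the kinase that B-type cyclins activate to start mitosis, had 2.08, 5.04, 7.86 and 5.13 CPM in HFD_PFOA livers, 2.82, 2.86, 3 and 3.56 CPM in HFD_vehicle livers, 0.997, 3.81, 1.94 and 2.90 CPM in CD_PFOA livers, and 1.54, 0.412, 0.468 and 1.71 CPM in CD_vehicle livers. The CD_PFOA livers overlapped the CD_vehicle livers for Cdk1, and the HFD groups did not.

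Ccnb1, the other B-type cyclin, was the scarcest member per length of transcript (0.149 CPM per kb over all libraries, against 1.86 for Ccnb2). It had 0.212, 1.27, 1.40 and 2.19 CPM in HFD_PFOA livers, 1.24, 0.255, 0.200 and 0.958 CPM in HFD_vehicle livers, 0.125, 1.08, 0.674 and 0.204 CPM in CD_PFOA livers, and 0.0834, 0, 0 and 0.171 CPM in CD_vehicle livers. The 4 CD_vehicle libraries held 6 counts of it in all, against 128 in HFD_PFOA, so its fold changes are imprecise.

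Birc5 (chr11:117849251-117855743) encodes survivin, a subunit of the chromosomal passenger complex that corrects chromosome attachment. It had 2.54, 4.38, 7.43 and 3.45 CPM in HFD_PFOA livers, 3.05, 2.30, 3.06 and 2.49 CPM in HFD_vehicle livers, 2.16, 2.57, 1.52 and 2.37 CPM in CD_PFOA livers, and 0.667, 0, 0.562 and 1.03 CPM in CD_vehicle livers. All livers with an exposure were above all CD_vehicle livers. Bub1b, the checkpoint protein BubR1 that holds cells before anaphase, had 2.16, 2.99, 3.77 and 2.35 CPM in HFD_PFOA livers, 2.28, 2.91, 1.53 and 2.26 CPM in HFD_vehicle livers, 0.872, 1.70, 1.56 and 1.88 CPM in CD_PFOA livers, and 0.917, 0.366, 0.656 and 0.897 CPM in CD_vehicle livers. One CD_PFOA liver lay within the CD_vehicle range, and no liver on the high-fat diet did.

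Cdc20 (chr4:118432901-118437352), the activator of the anaphase-promoting complex that ends this hold, had 1.23, 3.68, 11.8 and 4.90 CPM in HFD_PFOA livers, 2.28, 1.33, 0.866 and 2.30 CPM in HFD_vehicle livers, 3.65, 2.82, 1.52 and 2.37 CPM in CD_PFOA livers, and 1.08, 0.321, 0.0937 and 0.513 CPM in CD_vehicle livers. One HFD_vehicle liver lay below the highest CD_vehicle liver, and the PFOA groups were clear of it. HFD_PFOA 3 alone was at over 2 times the level of any other liver.

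Prc1 and Kif20a act at the central spindle, where the protein of Prc1 bundles microtubules and the kinesin Kif20a carries proteins needed for the cell to divide. Prc1 had 2.46, 3.81, 6.65 and 4.47 CPM in HFD_PFOA livers, 3.17, 2.40, 2.13 and 2.30 CPM in HFD_vehicle livers, 1.20, 0.911, 1.26 and 2.74 CPM in CD_PFOA livers, and 0.417, 0.412, 0.468 and 1.11 CPM in CD_vehicle livers. Every liver on the high-fat diet was above every CD_vehicle liver, and 1 CD_PFOA liver was below CD_vehicle 4. Kif20a had 2.46, 4.42, 8.05 and 5.17 CPM in HFD_PFOA livers, 4.09, 3.93, 2.07 and 3.14 CPM in HFD_vehicle livers, 2.82, 3.27, 3.46 and 2.78 CPM in CD_PFOA livers, and 0.917, 0.0916, 1.5 and 1.24 CPM in CD_vehicle livers. No liver with an exposure overlapped the CD_vehicle livers for Kif20a.

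The 12 genes of mitosis not given by library above, other than Aurka and Cenpa, have their group means here in the order HFD_PFOA, HFD_vehicle, CD_PFOA and CD_vehicle (SD, n = 4 each). Ccna2, the cyclin of S phase and early mitosis, averaged 6.87 ± 3.6, 3.69 ± 1.02, 2.93 ± 0.589 and 1.73 ± 0.541 CPM. Foxm1, which switches on late cell cycle genes, averaged 4.37 ± 1.94, 2.36 ± 0.36, 2.18 ± 0.709 and 1.14 ± 0.475 CPM. Both had their highest mean with both exposures and their lowest with neither, which held for all 12 except Kif23 in its lowest mean. Among the kinases, Plk1, which drives many steps of mitosis, averaged 3.03 ± 1.82, 1.86 ± 0.472, 2.11 ± 1.29 and 0.732 ± 0.620 CPM. Aurkb, the kinase of the chromosomal passenger complex, averaged 2.57 ± 1.52, 1.25 ± 0.492, 1.14 ± 0.331 and 0.644 ± 0.400 CPM. Bub1, a checkpoint kinase, was scarce, at 1.61 ± 0.909, 0.598 ± 0.614, 0.6 ± 0.296 and 0.199 ± 0.179 CPM.

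At kinetochores, where chromosomes meet the spindle, the motor Cenpe averaged 3.35 ± 0.885, 2.16 ± 0.941, 1.82 ± 0.513 and 0.835 ± 0.832 CPM in HFD_PFOA, HFD_vehicle, CD_PFOA and CD_vehicle livers. Cenpf, a large kinetochore protein, averaged 4.42 ± 2.79, 2.48 ± 0.809, 2.47 ± 0.627 and 0.668 ± 0.840 CPM. The SDs of both exceeded the mean or nearly so in CD_vehicle livers. Of the spindle proteins, Tpx2, which activates the kinase Aurka, averaged 4.97 ± 1.89, 3.92 ± 2.01, 3.08 ± 0.969 and 1.20 ± 0.659 CPM in the same order. Nusap1 averaged 5.20 ± 1.96, 2.52 ± 0.595, 2.2 ± 0.671 and 1.28 ± 1.19 CPM. The kinesin Kif11 averaged 4.18 ± 1.72, 3.13 ± 0.609, 2.24 ± 0.719 and 2.10 ± 1.04 CPM, and Kif23, which acts at the end of division, 2.87 ± 1.65, 1.48 ± 0.332, 0.851 ± 0.355 and 1.14 ± 1.11 CPM. Ube2c, the ubiquitin-conjugating enzyme of the anaphase-promoting complex, averaged 3.72 ± 1.82, 2.75 ± 0.318, 2.66 ± 0.423 and 0.745 ± 0.607 CPM.

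Aurka and Cenpa varied least between groups. Aurka, the kinase that matures spindle poles, averaged 3.48 ± 1.12, 3.67 ± 0.774, 2.96 ± 1.30 and 2.64 ± 1.56 CPM, and Cenpa, the histone of centromeres, 4.31 ± 0.640, 3.18 ± 1.01, 3.34 ± 0.086 and 2.79 ± 0.953 CPM in HFD_PFOA, HFD_vehicle, CD_PFOA and CD_vehicle livers.

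Libraries were not stranded, so reads of genes that overlap these on either strand cannot be told apart. Exons of Cdc23 cover 29.3% of those of Kif20a, exons of Tnnc2 cover 22.8% of Ube2c, exons of Exosc9 cover 12.5% of Ccna2, and exons of Rccd1 cover 11.1% of Prc1. Levels of these genes are uncertain to that extent.

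**Figure D2:**
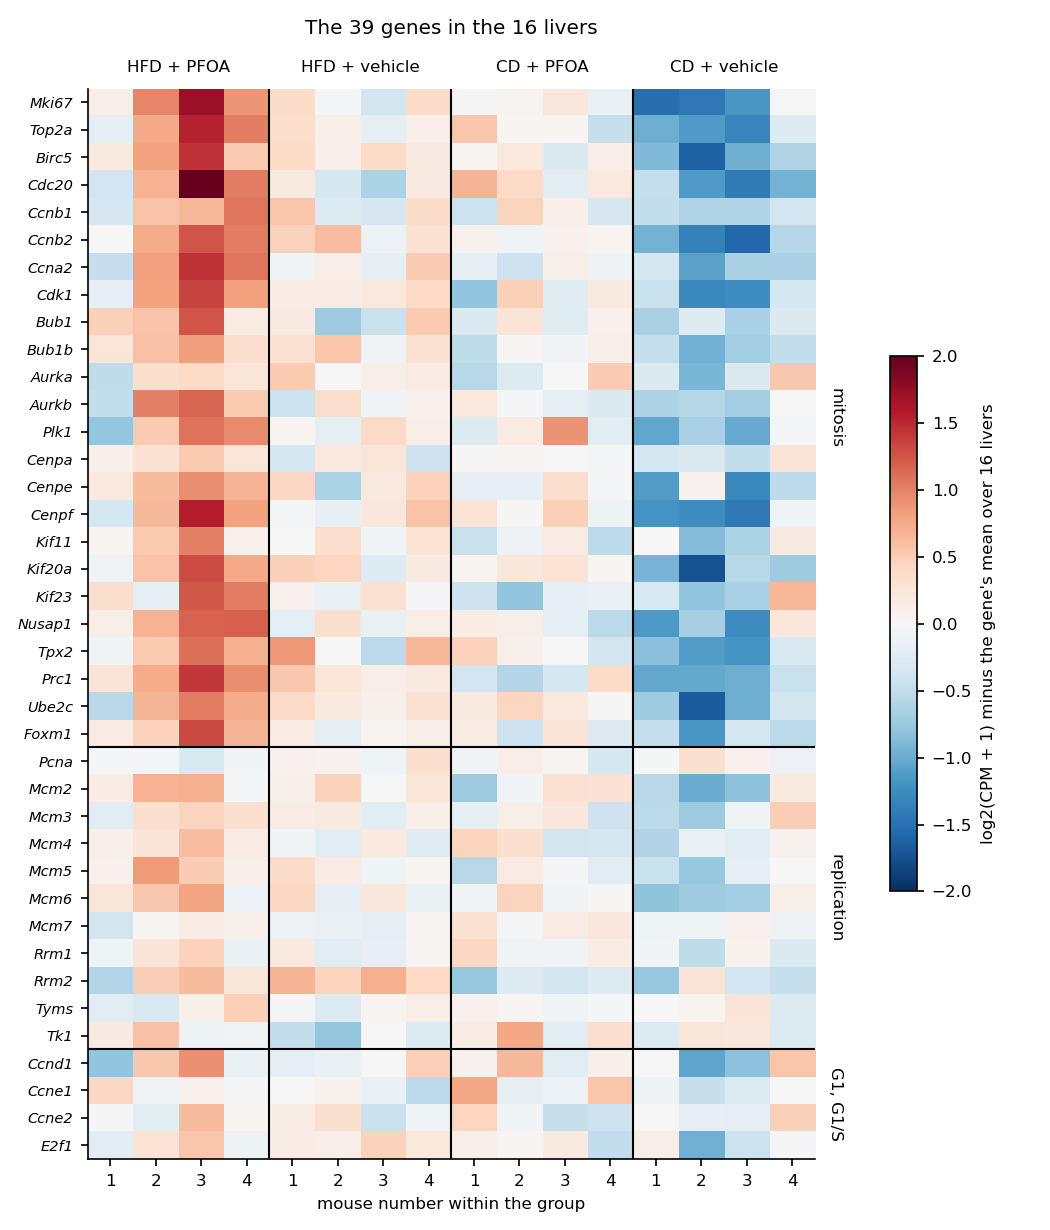
Each row is 1 of the 39 genes and each column 1 of the 16 livers, and color gives log2(CPM + 1) minus the gene's mean over the 16 livers. Most rows of mitosis are low in CD_vehicle 1, 2 and 3 and highest in HFD_PFOA 3, with Aurka, Ccnb1 and Nusap1 highest in other livers, whereas rows such as Pcna and Tyms show little change between groups.

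Promoters of the 39 genes were read for the elements named above, a description that does not use the levels in these livers. RefSeq promoter windows of GRCm38.p6, from 250 bases before to 50 after the start (300 bases), were found for 31 of the 39 genes. The CHR letters TTTGAA, searched on both strands, were in the windows of 14 of 19 genes of mitosis, 1 of 10 replication genes and 0 of 2 genes of G1 and G1/S, against 20.2% of 27025 genes with a window. CCAAT, on either strand, was in 17 of 19, 8 of 10 and 0 of 2, against 41.1% of all genes with a window. Any of 4 E2F sites (TTTGGCGC, TTTCCCGC, TTTCGCGC and TTTGCCGC, on either strand) was in 1 of 19, 4 of 10 and 0 of 2, against 2.6% of all genes with a window. A match describes these letters and shows no bound factor.

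The 150 bases before the start are shown for the proliferation marker, for the cyclin, the activator and the topoisomerase of mitosis with the values above, and for 2 replication genes described further on. Each reads 5′ to 3′ on the gene's strand, and capitals mark CHR, CCAAT and E2F letters on either strand, which overlap at 1 place in Mcm6.
Mki67, chr7:135716380-135716529, minus strand: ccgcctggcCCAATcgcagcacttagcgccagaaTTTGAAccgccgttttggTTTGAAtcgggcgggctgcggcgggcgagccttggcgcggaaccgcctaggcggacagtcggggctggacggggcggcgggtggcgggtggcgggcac
Ccnb2, chr9:70421555-70421704, minus strand: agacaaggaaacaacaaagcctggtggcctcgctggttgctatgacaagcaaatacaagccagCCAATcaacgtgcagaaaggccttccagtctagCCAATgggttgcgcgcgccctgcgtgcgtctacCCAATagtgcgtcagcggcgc
Cdc20, chr4:118437344-118437493, minus strand: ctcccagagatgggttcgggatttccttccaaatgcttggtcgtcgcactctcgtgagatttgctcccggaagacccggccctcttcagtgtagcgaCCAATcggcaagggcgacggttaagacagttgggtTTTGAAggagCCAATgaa
Top2a, chr11:99024190-99024339, minus strand: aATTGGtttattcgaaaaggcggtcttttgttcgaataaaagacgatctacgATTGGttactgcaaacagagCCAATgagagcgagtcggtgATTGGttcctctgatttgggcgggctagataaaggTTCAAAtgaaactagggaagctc
Mcm6, chr1:128359706-128359855, minus strand: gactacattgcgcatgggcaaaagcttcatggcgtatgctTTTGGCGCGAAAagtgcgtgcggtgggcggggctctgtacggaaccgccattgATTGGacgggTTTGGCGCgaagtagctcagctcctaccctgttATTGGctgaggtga
Rrm2, chr12:24708104-24708253, plus strand: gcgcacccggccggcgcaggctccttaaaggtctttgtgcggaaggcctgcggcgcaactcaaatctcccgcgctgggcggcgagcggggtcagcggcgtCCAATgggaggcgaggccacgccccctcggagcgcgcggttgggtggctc
Counted from the start, the letters TTTGAA begin at base −18 in Cdc20, followed by a CCAAT box at −8, and at −116 and −98 in Mki67. Ccnb2 has CCAAT boxes at −87, −54 and −21, and its TTTGAA letters lie outside the stretch, at −167 and at base 5 after the start. Top2a carries the CHR on the other strand at −23, and TTTGAA letters outside the stretch at −179. Mcm6 carries E2F letters and no CHR, and Rrm2 carries a CCAAT box and neither of the other elements.

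The combination of diet and PFOA was set against neither exposure (HFD_PFOA minus CD_vehicle), a comparison chosen with results of these data known. Of the 24 genes of mitosis, 21 rose and none fell by edgeR's quasi-likelihood test (adjusted p under 0.05 over all genes), as did 3 of 11 replication genes and 0 of 4 genes of G1 and G1/S. Of all genes tested, 14.9% were called higher and 15.0% lower, against 87.5% of the genes of mitosis and 27.3% of those of replication called higher. The median log2 fold change was 2.05 for mitosis, 0.43 for replication and 0.50 for G1 and G1/S, against 0.0032 for all genes. For G1 and G1/S the count of 0 was the same at an unadjusted p under 0.05 and by DESeq2.

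Prc1 rose by a log2 fold change of 2.84 ± 0.44 (SE, adjusted p = 5.75e-05, 7.15-fold) and Ccnb2 by 2.98 ± 0.46 (adjusted p = 6.37e-05, 7.90-fold). Mki67 rose by 2.09 ± 0.35 (adjusted p = 0.000129, 4.25-fold) and Top2a by 2.05 ± 0.35 (adjusted p = 0.000169, 4.15-fold). Birc5 rose 7.78-fold and Cdc20 10.5-fold. Each of these 6 kept its call in all 16 fits that left out 1 library. The 15 other genes of mitosis that rose did so by 1.98-fold (Kif11) to 18.1-fold (Ccnb1). Without CD_vehicle 4, the log2 fold change of Mki67 was 2.66 and the median over mitosis was 2.60. That median was 1.83 without HFD_PFOA 3, with 18 genes of mitosis called, and 2.31 without HFD_PFOA 1.

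The 3 genes of mitosis that did not pass were Aurka, Kif23 and Cenpa. Without CD_vehicle 4, 23 of 24 were called, Kif23 and Cenpa among them, and Cenpa was also called by library totals and Kif23 without HFD_PFOA 2. Their 95% intervals of the log2 fold change were −0.37 to 1.16, 0.20 to 2.44 and 0.10 to 1.16 with all libraries. Kif11, a kinesin that pushes spindle poles apart, passed narrowly (0.99 ± 0.37, adjusted p = 0.0485) and lost its call in 9 of the 16 fits without 1 library, most of all without CD_vehicle 2 (0.77), CD_vehicle 3 (0.84) and HFD_PFOA 3 (0.69). The 6 further libraries whose omission lost the call were CD_PFOA 2, HFD_PFOA 2 and the 4 of HFD_vehicle, at 0.96 to 0.99. Bub1 lost its call without CD_vehicle 1 (2.65), CD_vehicle 3 (2.67) or HFD_PFOA 3 (2.53), and Plk1 without HFD_PFOA 3 (1.76). All 4 HFD_PFOA livers were above all 4 CD_vehicle livers for 14 genes of mitosis and for Mcm4 and Mcm5, against 13.6% of all genes.

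**Figure D3:**
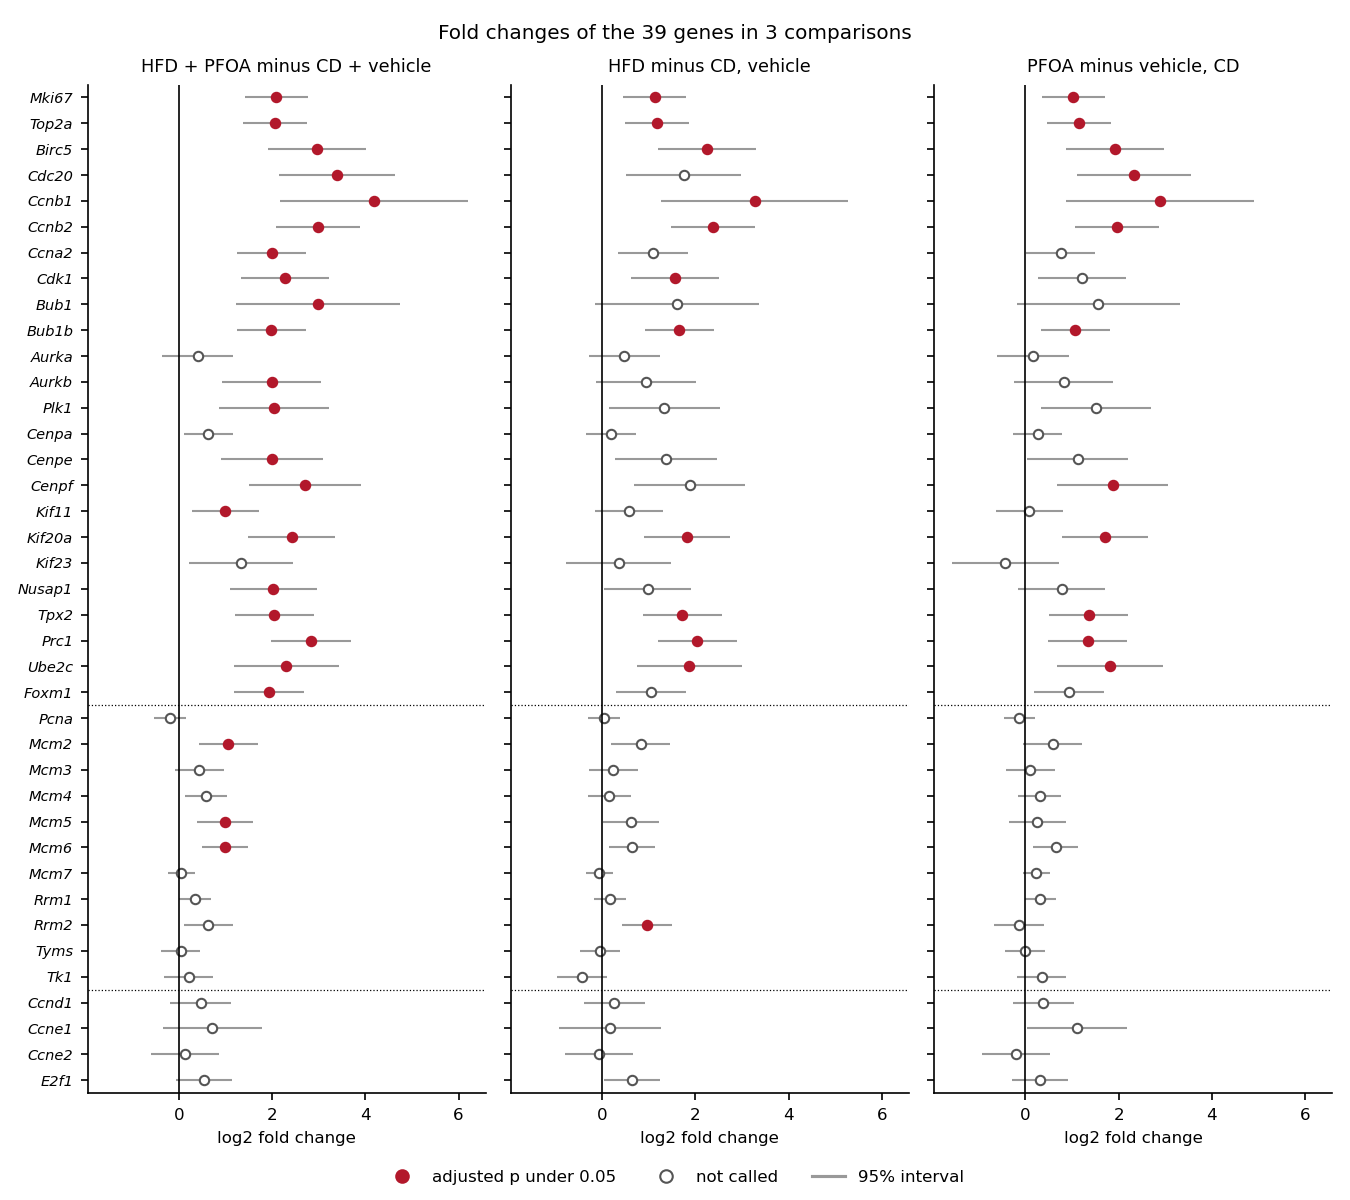
Log2 fold change (x axis) of each of the 39 genes (y axis) with its 95% interval in 3 comparisons, ordered by phase. Filled points are called at adjusted p under 0.05. In the left panel, for both exposures, the points of mitosis lie right of 0 and 21 of 24 are filled. Of the replication points Mcm2, Mcm5 and Mcm6 are filled, and no point of G1 or G1/S is.

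The diet alone (HFD_vehicle minus CD_vehicle) raised 11 of the 24 genes of mitosis and 1 of 11 replication genes. None of the 39 fell, and of all genes 5.19% were called higher and 5.21% lower, against 45.8% of the genes of mitosis called higher. Ccnb2 rose by a log2 fold change of 2.37 ± 0.46 (SE, adjusted p = 0.00274, edgeR, 5.18-fold), Prc1 by 2.04 ± 0.43 (adjusted p = 0.00529), Bub1b by 1.65 ± 0.38 (adjusted p = 0.00839) and Birc5 by 2.25 ± 0.54 (adjusted p = 0.0110). These 4 were called in all 16 fits that left out a library. Kif20a, Tpx2, Top2a, Mki67, Ube2c, Cdk1 and Ccnb1 were the other 7 called. Of these, Ube2c kept its call in 3 of the 16 fits, Ccnb1 in 4, Cdk1 in 6, Tpx2 in 13 and Kif20a in 15.

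Mki67 rose 2.19-fold (log2 fold change 1.13 ± 0.34, adjusted p = 0.0430) and Top2a rose by 1.18 ± 0.35 (adjusted p = 0.0367). Both lost their calls without CD_vehicle 1, 2 or 3 and without HFD_vehicle 1, 2 or 4, Mki67 at values from 0.94 to 1.18 and Top2a from 1.03 to 1.18. Mki67 also lost its call without CD_PFOA 2 or 4 and without HFD_PFOA 2 or 4, with a value of 1.13 in each. The value of Mki67 was 1.70 without CD_vehicle 4. The number of the 39 genes called was 17 without CD_vehicle 4, but 5 without CD_vehicle 3, 5 without HFD_vehicle 1, 5 without HFD_vehicle 2, 6 without HFD_vehicle 4 and 5 when the vehicle livers alone were fitted, against 12 with all libraries.

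The median log2 fold change of mitosis under the diet alone was 1.46, and 1.81 without CD_vehicle 4, against −0.03 over all genes. Replication had a median of 0.17 and G1 and G1/S 0.21. All 4 HFD_vehicle livers were above all 4 CD_vehicle livers for 11 genes of mitosis, Rrm2 and E2f1, against 7.25% of all genes. Scaling by library totals in place of TMM factors put the median of all genes at 0.19 and called 18 of the 39 genes, while the share of all calls that were higher was 87.7% by library totals and 49.9% by TMM.

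Macrophage markers stood higher under the diet alone as well: 6 of 12 were called higher and their sum was 641 to 867 CPM in HFD_vehicle livers, against 306 to 607 CPM in CD_vehicle livers. Their part in the result was not tested. The stellate cell markers had 4 of 10 called higher, and 7 of 9 hepatocyte markers were called lower, with sums of 79538 to 92321 CPM in HFD_vehicle livers and 103789 to 138304 CPM in CD_vehicle livers.

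PFOA on the control diet (CD_PFOA minus CD_vehicle) raised 12 of the 24 genes of mitosis, with none lower, and 0 of the 15 other genes. Of all genes 11.8% were called higher and 12.6% lower, against 50% of the genes of mitosis called higher. This comparison shares its CD_vehicle livers with the comparisons of the diet alone and of both exposures. Ccnb2 rose by a log2 fold change of 1.96 ± 0.46 (SE, adjusted p = 0.00363, edgeR, 3.90-fold), Cdc20 by 2.33 ± 0.63 (adjusted p = 0.00953, 5.04-fold), Kif20a by 1.71 ± 0.47 (adjusted p = 0.0113) and Birc5 by 1.91 ± 0.54 (adjusted p = 0.0124). These 4 were called in all 16 fits that left out a library. Top2a, Ube2c, Tpx2, Cenpf, Prc1, Mki67, Bub1b and Ccnb1 were the other 8. Of these, Bub1b and Ccnb1 each kept their call in 6 of the 16 fits, Cenpf in 11, Tpx2 and Prc1 in 12 and Ube2c in 14.

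Mki67 rose 2.04-fold (log2 fold change 1.03 ± 0.34, adjusted p = 0.0343) and Top2a 2.21-fold (1.14 ± 0.35, adjusted p = 0.0209). The call of Mki67 was lost without CD_PFOA 1, 2 or 3 and without CD_vehicle 1, 2 or 3, at values from 0.84 to 1.06, and its value was 1.6 without CD_vehicle 4. The call of Top2a was lost without CD_PFOA 1 (0.92), CD_vehicle 2 (1.04) or CD_vehicle 3 (0.98). The number of the 39 genes called was 7 without CD_vehicle 1, 6 without CD_vehicle 2, 4 without CD_vehicle 3, 17 without CD_vehicle 4 and 4 when CD livers alone were fitted.

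The median of mitosis was 1.18, and 1.62 without CD_vehicle 4, against −0.0024 over all genes, and replication and G1 and G1/S had medians of 0.26 and 0.34. All 4 CD_PFOA livers were above all 4 CD_vehicle livers for 5 genes, Birc5, Cdc20, Ccnb2, Kif20a and Ube2c, against 11.1% of all genes, a share near that of the 39. None of 15 replication and G1 or G1/S genes passed by edgeR, 1 had an unadjusted p under 0.05, and DESeq2 called 0. In this comparison 0 of 12 macrophage markers were called by edgeR or DESeq2, 1 had an unadjusted p under 0.05, and their sum was 251 to 602 CPM in CD_PFOA livers, against 306 to 607 CPM in CD_vehicle livers, with the 607 in CD_vehicle 4. Without CD_vehicle 4, 3 of the 12 were called higher, and their median log2 fold change was 0.30, against 0.12 with all libraries. Hepatocyte markers were called lower for 8 of 9, with sums of 59703 to 77888 CPM in CD_PFOA livers, and their part in the result was not tested.

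PFOA on the high-fat diet (HFD_PFOA minus HFD_vehicle) called 0 of the 39 genes by edgeR, where 8.6% of all genes were called higher and 7.91% lower. At an unadjusted p under 0.05 there were 7, against 14.5% of all genes higher at that p, and DESeq2 called 2, Mki67 and Cdc20. The log2 fold change was 0.96 ± 0.33 for Mki67 (SE, adjusted p = 0.0542, edgeR), 1.65 ± 0.57 for Cdc20 (adjusted p = 0.0542) and 0.87 ± 0.33 for Top2a (adjusted p = 0.0843). HFD_PFOA 1 overlapped the HFD_vehicle livers for each of the 3. Without HFD_PFOA 1, 4 genes were called higher, which were Mki67, Top2a, Cdc20 and the cyclin Ccna2.

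The median log2 fold change of mitosis was 0.75, 1.02 without HFD_PFOA 1 and 0.45 without HFD_PFOA 3, against 0.0075 over all genes. Calls also appeared without CD_vehicle 1 (2 genes), CD_vehicle 2 (1), CD_vehicle 3 (1) and CD_vehicle 4 (4), and 5 genes were called when HFD livers alone were fitted. The 4 HFD_PFOA livers were all above the 4 HFD_vehicle livers for 1 gene, Foxm1, the transcription factor of mitotic genes, against 12.9% of all genes. Foxm1 had 2.67, 3.48, 7.12 and 4.23 CPM in HFD_PFOA livers, against 2.63, 1.84, 2.40 and 2.57 CPM in HFD_vehicle livers, and the lowest of the HFD_PFOA livers was barely above the highest of the HFD_vehicle livers. Macrophage marker sums were 440 to 917 CPM in HFD_PFOA livers, highest in HFD_PFOA 3 and lowest in HFD_PFOA 1, and 641 to 867 CPM in HFD_vehicle livers. Their part in the result was not tested.

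**Figure D4:**
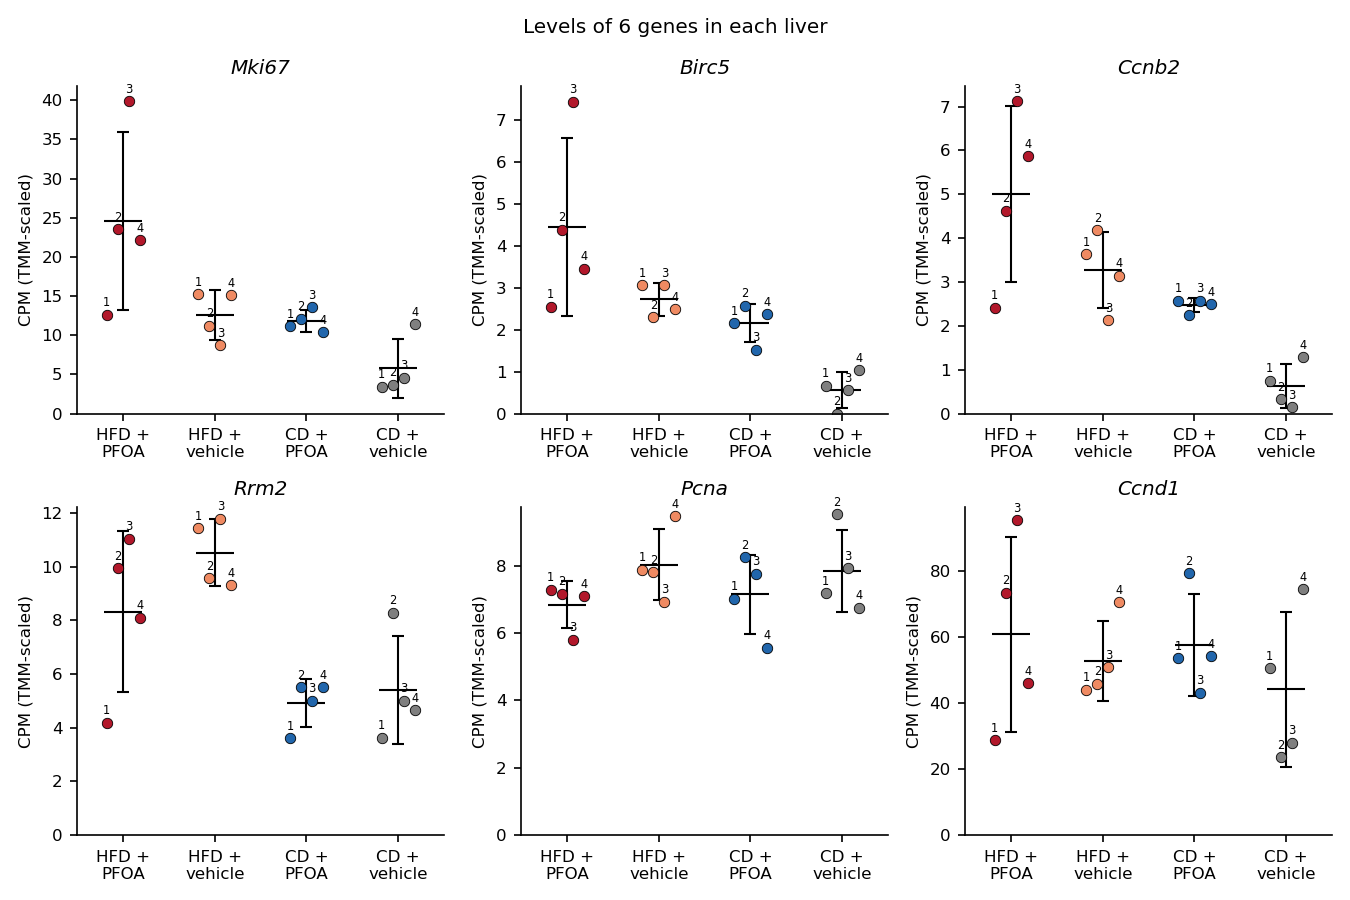
CPM of 6 genes (y axes) in each liver by group (x axes), with numbered mice and the mean ± SD of 4 mice. Mki67, Birc5 and Ccnb2 are lowest in CD_vehicle and widest in HFD_PFOA, Rrm2 is highest in HFD_vehicle, and Pcna and Ccnd1 overlap in all 4 groups.

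The diet under PFOA (HFD_PFOA minus CD_PFOA) also called 0 of the 39 genes by edgeR, where 0.0467% of all genes were called higher and 0.0133% lower, so hardly any gene passed in this comparison. There were 15 of the 39 genes at an unadjusted p under 0.05, 13 of them of mitosis, against 5.86% of all genes higher at that p, and DESeq2 called 1, Prc1. The log2 fold change was 1.5 ± 0.40 for Prc1 (SE, adjusted p = 0.151, edgeR), 1.06 ± 0.33 for Mki67 (adjusted p = 0.221) and 0.91 ± 0.33 for Top2a (adjusted p = 0.297). The median of mitosis was 1.01, and 0.70 without HFD_PFOA 3, against 0.0023 over all genes. For Bub1b and Cenpa all 4 HFD_PFOA livers were above all 4 CD_PFOA livers, against 4.15% of all genes.

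Whether PFOA acted differently on the diets was asked by the interaction, the PFOA difference on the high-fat diet minus that on the control diet. None of the 39 genes was called by edgeR or DESeq2, where edgeR called 0.207% of all genes in either direction, and 1 had an unadjusted p under 0.05. That gene was Ccnb2, at −1.35 ± 0.61 (SE, adjusted p = 0.42), and −1.96 without CD_vehicle 4 (adjusted p = 0.0871). Mki67 was at −0.07 ± 0.47 and Top2a at −0.27 ± 0.48. The median was −0.49 for mitosis, with 18 of 24 genes below 0, and 0.02 over all genes.

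The replication genes behaved in several ways. Subunits of the MCM helicase, which opens DNA at origins, were the ones that rose with both exposures. Mcm6 (chr1:128331590-128359664) had 10.5, 13.0, 15.7 and 7.95 CPM in HFD_PFOA livers, 11.9, 7.45, 10.3 and 7.70 CPM in HFD_vehicle livers, 8.31, 12.1, 8.22 and 8.79 CPM in CD_PFOA livers, and 4.5, 4.90, 5.06 and 9.44 CPM in CD_vehicle livers. CD_vehicle 1, 2 and 3 were below every other liver, and CD_vehicle 4 was within the range of each other group. With both exposures Mcm6 rose by a log2 fold change of 0.98 ± 0.25 (SE, adjusted p = 0.00572, edgeR, 1.97-fold), a call kept in all 16 fits that left out a library. Without CD_vehicle 4, Mcm2 and Mcm6 were also called higher with PFOA on the control diet and with the diet alone.

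Mcm2 had 5.97, 9.21, 9.30 and 5.13 CPM in HFD_PFOA livers, 5.79, 7.65, 5.26 and 6.47 CPM in HFD_vehicle livers, 2.82, 5.05, 6.74 and 6.71 CPM in CD_PFOA livers, and 3.29, 2.15, 2.58 and 6.19 CPM in CD_vehicle livers. CD_vehicle 4 was the liver of its group that overlapped the HFD livers. Mcm5 had 3.18, 6.14, 4.59 and 3.29 CPM in HFD_PFOA livers, 4.09, 3.42, 2.73 and 3.06 CPM in HFD_vehicle livers, 1.70, 3.44, 2.87 and 2.37 CPM in CD_PFOA livers, and 1.92, 1.33, 2.44 and 2.99 CPM in CD_vehicle livers, so that HFD_PFOA and CD_vehicle did not overlap. Mcm2 rose by 1.05 ± 0.32 (SE, adjusted p = 0.0176, edgeR) and Mcm5 by 0.99 ± 0.31 (adjusted p = 0.0202) with both exposures. Mcm2 lost its call without CD_vehicle 2 (0.88), CD_vehicle 3 (0.93), HFD_PFOA 2 (0.93) or HFD_PFOA 3 (0.93), and Mcm5 without CD_vehicle 2 (0.81) or HFD_PFOA 2 (0.76).

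Mcm3, Mcm4 and Mcm7, the other subunits of the helicase, were not called in any comparison with all libraries and TMM factors. With both exposures Mcm3 and Mcm4 were called higher without CD_vehicle 4, and Mcm4 also by library totals. With both exposures their 95% intervals of the log2 fold change were −0.10 to 0.96, 0.12 to 1.03 and −0.25 to 0.34. Exons of 4 genes, among them Cops6 and Ap4m1, overlap 12.6% of those of Mcm7.

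Rrm2 (chr12:24708241-24714146), the small subunit of the ribonucleotide reductase that makes deoxynucleotides, had its highest mean in HFD_vehicle livers. It had 4.19, 9.95, 11 and 8.11 CPM in HFD_PFOA livers, 11.4, 9.59, 11.8 and 9.31 CPM in HFD_vehicle livers, 3.61, 5.51, 5.02 and 5.52 CPM in CD_PFOA livers, and 3.63, 8.29, 5.01 and 4.66 CPM in CD_vehicle livers. All HFD_vehicle livers were above all livers on the control diet, and HFD_PFOA 1 was below most of these. Under vehicle Rrm2 rose by a log2 fold change of 0.96 ± 0.27 (SE, adjusted p = 0.0288, edgeR, 1.95-fold), a call lost without CD_vehicle 1 (0.82), CD_vehicle 3 (0.93), HFD_vehicle 1 (0.92), HFD_vehicle 2 (1.01) or HFD_vehicle 3 (0.91). Under PFOA it was not called for diet (95% interval 0.23 to 1.29, adjusted p = 0.279), and PFOA did not change it detectably on either diet (−0.67 to 0.40 on the control diet and −0.86 to 0.18 on the high-fat diet). Rrm1, its large subunit, was called in no comparison with TMM factors, with means of 14.8 ± 3.16, 13.1 ± 1.84, 14.6 ± 2.58 and 11.7 ± 2.2 CPM in HFD_PFOA, HFD_vehicle, CD_PFOA and CD_vehicle livers (SD, n = 4 each). By library totals, both Rrm1 and Rrm2 were called higher with both exposures, and Rrm2 also without CD_vehicle 2 or HFD_PFOA 1.

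Pcna, the clamp that holds DNA polymerase on its template, had 7.29, 7.16, 5.8 and 7.09 CPM in HFD_PFOA livers, 7.88, 7.80, 6.93 and 9.46 CPM in HFD_vehicle livers, 7.02, 8.24, 7.76 and 5.56 CPM in CD_PFOA livers, and 7.17, 9.53, 7.92 and 6.75 CPM in CD_vehicle livers. It was the most abundant replication gene per length (3.11 CPM per kb) and overlapped in all 4 groups. Its 95% intervals were −0.53 to 0.14 with both exposures, −0.30 to 0.37 for the diet alone and −0.47 to 0.20 for PFOA alone. None of these intervals reaches a 2-fold rise, whereas Mki67 rose by over 2-fold in each comparison. Tyms, which makes thymidylate, had intervals of −0.39 to 0.46, −0.47 to 0.38 and −0.43 to 0.42 in the same comparisons. The copies Pcna-ps2 and Tyms-ps held 110 and 86 counts over all libraries, against 2780 for Pcna and 1982 for Tyms.

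Between the single exposures (HFD_vehicle minus CD_PFOA, a comparison also chosen with results of these data known), no gene of mitosis passed by edgeR or DESeq2, and 0 had an unadjusted p under 0.05. Of the 39 genes 1 was called higher, Rrm2, and 1 lower, Tk1, where 9.62% of all genes were called higher and 10.5% lower. The median of mitosis was 0.22, with Mki67 at 0.10 ± 0.33 and Top2a at 0.04 ± 0.34. Rrm2 was higher with the diet by 1.10 ± 0.27 (SE, adjusted p = 0.00688, edgeR, 2.14-fold), and called in every fit that left out a library. Tk1, the kinase that salvages thymidine, had 3.59, 2.75, 5.40 and 4.29 CPM in HFD_vehicle livers, against 6.15, 9.98, 4.47 and 7.12 CPM in CD_PFOA livers, which overlapped. Its log2 fold change was −0.79 ± 0.27 (adjusted p = 0.0457), a call lost without CD_PFOA 1, 2 or 4, HFD_vehicle 1, 2 or 4, CD_vehicle 3 or HFD_PFOA 1 or 4, at −0.85 to −0.56, and also lost by library totals (−0.68).

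None of the genes of G1 and G1/S was called in any comparison. Ccnd1, cyclin D1, which starts passage through G1, was the most abundant of the 39 genes per length (11.4 CPM per kb). It had 28.6, 73.3, 95.3 and 45.9 CPM in HFD_PFOA livers, 44.0, 45.8, 50.7 and 70.4 CPM in HFD_vehicle livers, 53.4, 79.2, 43.0 and 54.0 CPM in CD_PFOA livers, and 50.5, 23.6, 27.9 and 74.5 CPM in CD_vehicle livers. Both the lowest HFD_PFOA and the highest CD_vehicle values lay inside the range of the other group. Exons of LTO1 overlap 23.4% of those of Ccnd1.

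Ccne2, one of the E-type cyclins of the G1/S transition, had 2.12, 1.76, 3.93 and 2.27 CPM in HFD_PFOA livers, 2.51, 2.96, 1.33 and 1.99 CPM in HFD_vehicle livers, 3.28, 2.07, 1.31 and 1.39 CPM in CD_PFOA livers, and 2.21, 1.83, 1.78 and 3.42 CPM in CD_vehicle livers, with all groups overlapping. Exons of Ints8 overlap 17.4% of those of Ccne2. Its interval with both exposures was −0.60 to 0.85. Ccne1 averaged 0.974 ± 0.322, 0.666 ± 0.285, 1.27 ± 0.744 and 0.589 ± 0.217 CPM, and E2f1, a factor that switches on replication genes, 4.23 ± 1.31, 4.55 ± 0.623, 3.62 ± 0.880 and 2.92 ± 1.21 CPM in HFD_PFOA, HFD_vehicle, CD_PFOA and CD_vehicle livers (SD, n = 4 each). Their intervals with both exposures were −0.35 to 1.79 and −0.07 to 1.14, wide enough to hold a 2-fold rise.

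Further cell cycle genes were read from lists of 48 other mitosis genes, 41 other replication genes, 19 other genes of G1 and 6 inhibitors of cyclin-dependent kinases that were tested. Other mitosis genes were called higher for 30 and lower for 2 with both exposures, for 8 and 1 with the diet alone, for 14 and 2 with PFOA on the control diet, and for 4 and 2 with PFOA on the high-fat diet. The shares called higher were 62.5%, 16.7%, 29.2% and 8.33%, against 14.9%, 5.19%, 11.8% and 8.6% of all genes, so the last is at the level of all genes. Their medians were 1.79, 0.92, 0.87 and 0.69. Other replication genes were called for 3 higher and 2 lower, 0 and 1, 1 and 3, and 0 and 0 in that order, with medians of 0.09, 0.15, 0.04 and 0.0088. For the 0 and 0, 3 genes had an unadjusted p under 0.05 and DESeq2 called 1. The shares of other replication genes called higher were 7.32%, 0%, 2.44% and 0%, below those of all genes. Other genes of G1 were called for 4 higher and 0 lower, 2 and 0, 4 and 1, and 3 and 1. Their shares called higher, of 19 genes, were above those of all genes each time, but rest on 2 to 4 genes. The inhibitors were called for 0 and 1, 0 and 0, 1 and 1, and 0 and 1, too few for a share. Of all genes, 15.0%, 5.21%, 12.6% and 7.91% were called lower in that order. With the diet alone, 2 inhibitors had an unadjusted p under 0.05 and DESeq2 called 0.

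Several of the further genes called had groups that did not overlap. Spc25, a subunit of the Ndc80 kinetochore complex, had 19.1, 18.4, 18.1 and 23.6 CPM in HFD_PFOA livers, 8.88, 6.43, 7.66 and 8.2 CPM in HFD_vehicle livers, 17.2, 24.1, 18.7 and 19.0 CPM in CD_PFOA livers, and 4.09, 5.95, 5.11 and 4.53 CPM in CD_vehicle livers. It had no overlap between PFOA and vehicle on either diet. It rose by a log2 fold change of 1.34 ± 0.15 with PFOA on the high-fat diet (SE, adjusted p = 2.74e-06, edgeR) and 2.0 ± 0.16 on the control diet (adjusted p = 1.42e-08), and by 0.67 ± 0.16 with the diet alone (adjusted p = 0.00996). Spc24, its partner in the complex, fell by 0.81 on the high-fat diet and by 1.12 on the control diet under PFOA (adjusted p = 0.00595 and 0.000229).

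E2f8, an atypical E2F that represses other E2F targets and takes part in making hepatocytes polyploid, had 19.8, 18.3, 30.0 and 17.6 CPM in HFD_PFOA livers, 5.41, 6.12, 5.33 and 3.33 CPM in HFD_vehicle livers, 30.2, 29.6, 28.3 and 25.5 CPM in CD_PFOA livers, and 3.46, 2.29, 3.09 and 5.85 CPM in CD_vehicle livers. It rose by 2.09 ± 0.24 with PFOA on the high-fat diet (SE, adjusted p = 2.86e-06, edgeR) and by 2.94 ± 0.24 on the control diet (adjusted p = 3.19e-08), with no overlap in either. Exons of Gm2788 overlap 11.2% of those of E2f8. E2f2 fell by 1.98 and E2f3 rose by 0.64 with PFOA on the control diet (adjusted p = 0.00285 and 0.00381).

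Myc, a growth factor-induced regulator of transcription, had 15.9, 29.1, 20.6 and 18.5 CPM in HFD_PFOA livers, 7.45, 6.17, 6.26 and 7.74 CPM in HFD_vehicle livers, 11.4, 13.0, 9.15 and 6.18 CPM in CD_PFOA livers, and 2.21, 1.01, 2.72 and 6.32 CPM in CD_vehicle livers. CD_vehicle 4 was the liver that overlapped the CD_PFOA and HFD_vehicle livers. Myc rose by 2.77 ± 0.36 with both exposures (SE, adjusted p = 8.8e-06, edgeR), by 1.6 ± 0.34 with PFOA on the high-fat diet (adjusted p = 0.00233) and by 1.69 ± 0.36 on the control diet (adjusted p = 0.00154). With the diet alone it rose by 1.17 ± 0.36 (adjusted p = 0.0439), a call kept in 6 of 16 fits without 1 library. It was lost without CD_vehicle 1, 2 or 3 (0.89 to 1.12), without any 1 HFD_vehicle liver (1.11 to 1.22) and without CD_PFOA 3, HFD_PFOA 3 or HFD_PFOA 4 (1.17).

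Cdkn1a encodes p21, which inhibits cyclin-dependent kinases. It had 25.8, 60.7, 52.8 and 63.8 CPM in HFD_PFOA livers, 146, 194, 184 and 187 CPM in HFD_vehicle livers, 39.7, 58.9, 71.3 and 53.6 CPM in CD_PFOA livers, and 129, 74.6, 112 and 142 CPM in CD_vehicle livers. Every PFOA liver was below every vehicle liver on either diet. It fell by 1.81 ± 0.24 on the log2 scale with PFOA on the high-fat diet (SE, adjusted p = 1.6e-05, edgeR) and by 1.03 ± 0.23 on the control diet (adjusted p = 0.00261). Cdkn2c, p18, was called higher by 1.16 ± 0.37 with PFOA on the control diet (adjusted p = 0.0275), a call lost without CD_PFOA 1 (0.85), CD_PFOA 2 (1.13) or CD_vehicle 2 (0.91).

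**Figure D5:**
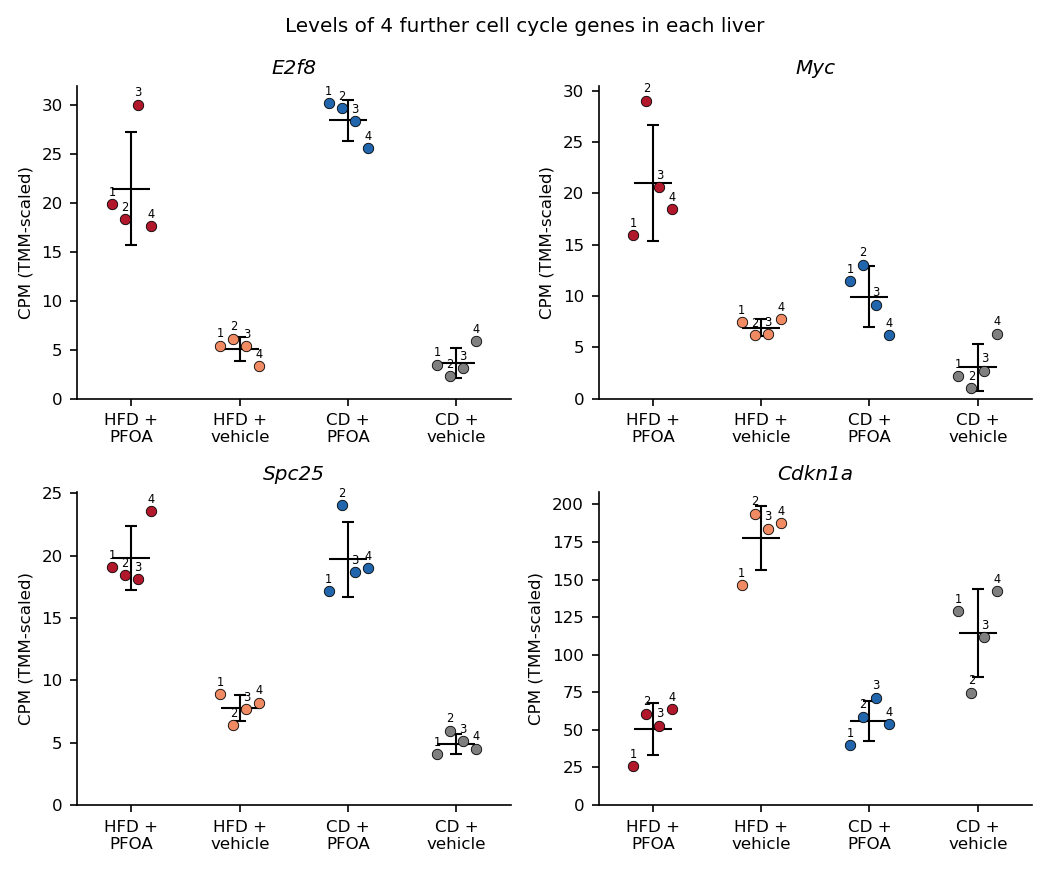
CPM of E2f8, Myc, Spc25 and Cdkn1a (y axes) in each liver by group (x axes), with numbered mice and the mean ± SD of 4 mice. Spc25 and E2f8 are higher and Cdkn1a is lower in PFOA than in vehicle livers on each diet, and Myc is highest in HFD_PFOA.

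Among replication enzymes outside the 39, the polymerase subunits Pold2 and Pole went opposite ways with PFOA on the control diet. Pold2 fell by 0.68 and Pole rose by 0.98 (adjusted p = 0.0118 and 0.0238, edgeR), and the call of Pole was lost without CD_PFOA 2 (0.85), CD_PFOA 3 (0.90) or CD_vehicle 4 (0.89). Rfc5, a subunit of the loader of the Pcna clamp, fell by 1.11 (adjusted p = 0.00505), with 10.7% of its exons overlapped by Wsb2. The replication gene Mcm10 fell by 0.46 (adjusted p = 0.0382, edgeR), a call kept in 10 of 16 fits without 1 library. With both exposures Mcm10 fell by 0.70 (adjusted p = 0.0021, edgeR), a call kept in all 16. Pold2 was also called lower with both exposures, and Pole, Pola1 and Lig1 were called higher. Pold2 fell with the diet alone too, by 0.74 (adjusted p = 0.0181, edgeR), a call kept in 13 of 16 fits without 1 library. With the diet alone, Anln rose by 1.83 and Hmmr by 2.66, genes of the dividing cell's cortex and spindle (adjusted p = 0.00613 and 0.00669).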

How the data were processed

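Liver RNA of 16 mice was extracted with the RNeasy kit and made into non-stranded libraries by BGI, per the labels' protocols. The authors deposited raw counts, whole numbers for each gene. Tools named in the submitters' processing notes are bcl2fastq (2.20.0.422), STAR (2.5.2b), Trimmomatic (0.33) and featureCounts of Subread (1.6.0), with the build GRCm38 (mm10). No source used here gives the annotation release. Each mouse is a biological replicate. Mouse numbers follow the order of the records and pair no mice, and the table held 0 columns of other samples.

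filterByExpr of edgeR 4.0.16 (R 4.3.3) kept 14998 of 53465 genes, and TMM factors scaled the libraries. The 16 libraries shared 1 quasi-likelihood fit (glmQLFit, glmQLFTest) with a mean per group, which left 12 residual degrees of freedom. Its common biological coefficient of variation was 0.242. Benjamini-Hochberg adjustment ran over all genes tested, with a call at an adjusted p under 0.05. An SE was taken as the log2 fold change, without its sign, over the square root of F, and the 95% intervals are normal intervals from it. CPM are per 1e+06 TMM-scaled counts, and phase means use log2(CPM + 1). CPM per kb divide by exon length. Totals of 14456524 to 25778125 counts per library limit the precision of members with few counts, the fewest being 249 counts of Ccnb1 over all libraries.

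The members and lists were chosen with earlier results of these data known. Given by library are 10 index members, up to 4 called members per phase and comparison with the smallest p and, of the other cell cycle lists, some of the up to 4 called genes per comparison with the smallest p. Foxm1 by library, Kif11, Plk1, Bub1, Ccna2 and the members of G1 or replication given as intervals were singled out after their values were seen. Alternatives were DESeq2 1.42.0, RLE factors, library totals, no filter, fits of a comparison's own libraries, and leaving out each library. The fit was tested on simulated data with known fold changes.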

Additional observations from a re-analysis of the deposited data

Results flagged for a closer look

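The sets examined were 220 sets of 4 livers, for a gene, a phase mean or a summed marker list. Of these, 16 held 1 liver far from the other 3, which is 7.27%. The cutoff gives about 1 in 20 for independent normal values. These sets share livers and CPM need not be normal, so the shares cannot be compared closely.

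In CD_vehicle 4, Mki67 was at 11.4 CPM, against 3.42 to 4.59 CPM in the other 3 livers of the group, Prc1 at 1.11 CPM, against 0.412 to 0.468 CPM, and Mcm6 at 9.44 CPM, against 4.5 to 5.06 CPM. The same liver held 649.5 CPM of B and plasma cell markers, against 19.0 to 33.0 CPM, and 98.0 CPM of cholangiocyte markers, against 49.3 to 52.5 CPM. Of the cholangiocyte sum, Spp1 made up 81.4 CPM, against at most 41.1 CPM in the other CD_vehicle livers, and Sox9 was also higher. Krt19, Krt7, Epcam, Cftr, Tff2 and Muc1 were each below the highest other CD_vehicle liver.

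In HFD_PFOA 3, Pcna was at 5.8 CPM, against 7.09 to 7.29 CPM, Pola1 at 6.69 CPM, against 5.16 to 5.29 CPM, and T and NK cell markers at 4.75 CPM, against 6.47 to 6.50 CPM. HFD_PFOA 1 held 64555 CPM of hepatocyte markers, against 52503 to 53631 CPM, and 23.9 CPM of neutrophil markers, against 1.80 to 2.98 CPM.

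Mcm6 was at 12.1 CPM in CD_PFOA 2, against 8.22 to 8.79 CPM, and Cdk4 at 50.8 CPM in CD_PFOA 1, against 39.9 to 41.5 CPM. In HFD_vehicle 1, Ect2 was at 5.10 CPM, against 3.53 to 3.68 CPM, and Cdk4 at 38.1 CPM, against 29.6 to 30.8 CPM. In HFD_vehicle 3, Cdk6 was at 39 CPM, against 41.3 to 41.7 CPM, and Kif20b at 2.66 CPM, against 3.51 to 3.57 CPM.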

How the results depend on the processing

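The numbers of the 39 genes called depended on the fit, and the cause was not tested. With PFOA on the control diet it was 12, 4 with that diet's libraries alone, and 4 to 17 when 1 library was left out. With PFOA on the high-fat diet it was 0, 3 with no filter on low counts, 2 by DESeq2, 5 with that diet's libraries alone, and 0 to 4 with 1 library left out. With the diet alone it was 12, 5 with the vehicle libraries alone, and 5 to 17 with 1 left out. With the diet under PFOA it was 0, 2 with no filter and 1 by DESeq2. With both exposures it was 24, and 20 to 28 with 1 left out. Between the single exposures it was 2, 1 by library totals, and 1 to 2 with 1 left out. The interaction called 0 in every fit run. By library totals, mean log2(CPM + 1) in HFD_vehicle livers was 3.06 for replication (2.98 with TMM) and 2.71 for G1 and G1/S (2.64).

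The interaction of Mki67, −0.07, was 0.0076 without CD_PFOA 3, 0.11, 0.09 and 0.02 without CD_vehicle 1, 2 and 3, 0.14 without HFD_PFOA 1, and 0.03 and 0.03 without HFD_vehicle 1 and 4, within −0.64 to 0.14 over all fits. Between the single exposures, Mki67 was −0.0061 without HFD_vehicle 1 (−0.01 to 0.23), and Top2a −0.12 without CD_PFOA 4 and −0.06 without HFD_vehicle 1 (−0.12 to 0.27). Of 2388 values of single genes over the alternatives, these 10 changed direction, 200 were no longer past the threshold, 20 newly passed it and 2158 kept both.

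By library totals the share of all calls that were higher was 61.1% with PFOA on the control diet (48.2% with TMM), 71.9% with both exposures (49.8%), 69.4% between the single exposures (47.9%), 91.7% for the diet under PFOA (77.8%) and 13.6% in the interaction (32.3%). The median of all genes moved to 0.18, 0.13 and −0.10 with both exposures, between the single exposures and in the interaction. No paired analysis was possible because the labels give no replicate numbers shared across groups. Genes with few counts, such as Ccnb1 and Bub1, allow no precise fold change at this depth.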

Other observations

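Markers of other cells moved with some groups. Sums of 10 sinusoidal endothelial markers overlapped in all 4 groups, at 372 to 474, 375 to 448, 376 to 520 and 357 to 445 CPM in HFD_PFOA, HFD_vehicle, CD_PFOA and CD_vehicle livers. Single markers did move: with PFOA on the control diet Pecam1, Cdh5 and Lyve1 were called higher and 1 marker lower by edgeR, and with both exposures 4 were called higher and 2 lower. Cholangiocyte markers summed to 56.8 to 80.5 CPM in HFD_PFOA livers, 126 to 252 CPM in HFD_vehicle livers, 33.0 to 57.9 CPM in CD_PFOA livers and 49.3 to 98.0 CPM in CD_vehicle livers, so the HFD_vehicle sums were above all others. Of the 7 cholangiocyte markers tested, Spp1 was the only one called by edgeR with the diet alone (higher) and with PFOA on the high-fat diet (lower), and DESeq2 called 2 higher with the diet alone. The neutrophil marker Ly6g was at 0 in all 16 libraries, and the plasma cell marker Tnfrsf17 was at 0 in 15.

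With both exposures, 9 of 9 hepatocyte markers were called lower by edgeR and 4 of 12 macrophage markers higher, or 8 of 12 without CD_vehicle 4. With PFOA on the high-fat diet, 7 of 9 hepatocyte markers were called lower and 0 of 12 macrophage markers in either direction by edgeR or DESeq2, with 2 at an unadjusted p under 0.05. The part of these cells in the levels of cell cycle genes was not tested.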
